A study of Bos taurus with 6 samples.

Results

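The miR-25, miR-32 and miR-92 family was followed through the small RNA of extracellular vesicles (EVs) from bovine granulosa cells. Its members were picked out of the table by their names, as the miRNAs bta-miR-25, bta-miR-32, bta-miR-92a, bta-miR-92b, bta-miR-363 and bta-miR-367, which share a seed. Of these 6, 5 were among the 512 miRNAs listed for every library. bta-miR-367 was not among them and was not analysed here. Granulosa cells, the hormone-producing cells around the oocyte, were aspirated from follicles of 3 to 6 mm in slaughterhouse ovaries, treated with a red blood cell lysis buffer and cultured for 24 h at 37 °C in medium with exosome-depleted serum. They were then either kept at 37 °C (control-EVs) or moved to heat stress at 42 °C (HS-EVs) for another 24 h, and EVs were precipitated with ExoQuick-TC from the spent medium. There were 3 libraries in each group, and the breed and age of the animals and their number behind a library are not given in the sources used here. The culture serum was itself bovine, so vesicles left over from serum and vesicles of the cultured cells cannot be told apart in these libraries.

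A miRNA finds its target messages mainly through the seed, a short stretch near its 5′ end, so that miRNAs with the same seed share many predicted targets. The messages of this family that are best known include the apoptosis promoter BCL2L11 (BIM) and the ubiquitin ligase subunit FBXW7. The family is scattered over the genome. bta-miR-92a belongs to the polycistron that starts with miR-17, a driver of proliferation in many tissues that has also been studied in granulosa cells, and bta-miR-25 lies in an intron of MCM7, a subunit of the replicative helicase. miR-367 accompanies the miR-302 miRNAs of embryonic stem cells. miR-92a and miR-25 are in addition among the abundant miRNAs of red blood cells.

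RefSeq annotates the 6 miRNAs on the assembly ARS-UCD2.0 with 7 genes at 6 places, where genes within 10 kb of each other were counted as 1 place. This assembly is not the UMD 3.1 assembly of the authors, so that only names and neighbours were taken from it. MIR25 lay within MCM7, beside MIR106B and MIR93. MIR32 lay within TMEM245, with no other miRNA gene nearby. bta-miR-92a had 2 genes, MIR92A-1 next to MIR17, MIR18A, MIR19A, MIR20A and MIR19B, and MIR92A-2 next to MIR363, MIR19B-2, MIR20B, MIR18B and MIR106A. MIR92B stood apart from other miRNA genes, near THBS3, MUC1 and TRIM46. MIR367 lay within LARP7 together with the 4 MIR302 genes. The table gives a single value for bta-miR-92a, which does not tell the products of its 2 genes apart.

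The values were normalized read counts, and every value was a whole multiple of the smallest value of its library, which was taken as 1 read. The recovered reads exceeded in every library the number that the study lists as mapped to annotated miRNAs. The reason was not tested, so that read numbers and the counting errors drawn from them hold only if the smallest value stands for 1 independent read. Recovered reads numbered 274434 to 2360980 per library. Between 59.9% and 98.6% of them were assigned to bta-miR-1246, which left 34141 to 235634 reads for all other miRNAs. HS-EVs replicate 1 stood apart, with the most reads in all and the fewest on other miRNAs, and 1 read was worth 4.11 normalized counts there against 0.697 to 1.98 in the other libraries. Among miRNAs of granulosa cells and the gonad, bta-miR-202 and bta-miR-21-5p had at least 508 reads in every library, bta-miR-31 had 214 to 1458, bta-miR-132 had 10 to 65, and bta-miR-383 and bta-miR-212 had at most 1.

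The detection limit was that of the study, 10 normalized counts reached by 2 or more libraries of a group, and 4 members met it in both groups. bta-miR-92a was the most abundant member. Replicates 1 to 3 of control-EVs had 4950, 7056 and 5608 normalized counts of it, and those of HS-EVs 4191, 5991 and 3570. Its highest library was control-EVs replicate 2 and its lowest HS-EVs replicate 3, and the groups overlapped. Between 1020 and 10119 reads lay behind these values, and bta-miR-92a ranked between 7 and 13 among the 512 miRNAs in each library.

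bta-miR-25 came next. Its normalized counts were 1885, 3557 and 2519 in control-EVs and 1779, 2263 and 1353 in HS-EVs, from 433 to 5101 reads. Here too control-EVs replicate 2 was highest and HS-EVs replicate 3 lowest, and 2 of the 3 HS-EVs libraries lay under the lowest control-EVs library. Its rank lay between 13 and 21.

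bta-miR-92b, a close relative of bta-miR-92a from its own gene, was far less abundant. Its values were 171, 204 and 186 normalized counts in control-EVs and 189, 187 and 91.3 in HS-EVs, from 46 to 292 reads. Only HS-EVs replicate 3 lay outside the range of the other 5 libraries by a wide margin. The mapping to the genome tolerated a mismatch, and the methods state none for the assignment to miRBase. Whether reads of the abundant bta-miR-92a were counted as bta-miR-92b was not tested.

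bta-miR-32, encoded in an intron of TMEM245, was the rarest of the 4. It had 40.4, 134 and 83.0 normalized counts in control-EVs and 28.8, 60.5 and 19.6 in HS-EVs. The reads behind them were few, with 22, 192 and 42 in control-EVs and 7, 55 and 12 in HS-EVs. In this member the libraries spread most, by 6.85 times between the highest, control-EVs replicate 2, and the lowest, HS-EVs replicate 3. The other 3 members spread by 1.98 to 2.63 times between the same 2 libraries. Since the EVs were sequenced in bulk, fewer EVs that carry a miRNA and fewer copies in each EV cannot be told apart.

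bta-miR-363, from the X-linked relative of the miR-17 polycistron, had 1 read in control-EVs replicate 2, HS-EVs replicate 2 and HS-EVs replicate 3 and none in the other libraries. That is under the floor of 3 reads, which is worth 2.09 to 12.3 normalized counts depending on the library, so that no fold change is given. Of the genes beside it, bta-miR-20b had at most 2 reads in any library, and bta-miR-106a and bta-miR-18b were not analysed here. bta-miR-92a and bta-miR-19b, which also have a gene there, were counted together with the products of their other genes.

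**Figure D1:**
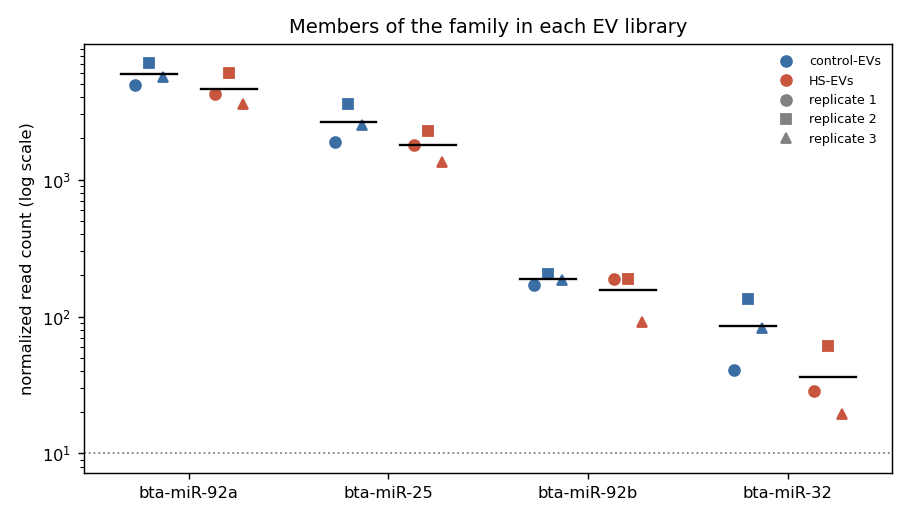
Normalized read count (log scale) of the 4 detected members in each of the 6 EV libraries, with the replicate given by the marker, the group mean by the black line and the detection limit of 10 by the dotted line. bta-miR-92a and bta-miR-25 lie between 1353 and 7056 and bta-miR-92b and bta-miR-32 between 19.6 and 204, and for all 4 the highest point is control-EVs replicate 2 and the lowest HS-EVs replicate 3.

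Within a library the order of the members was fixed. bta-miR-92a had 1.98 to 2.65 times the reads of bta-miR-25 in 6 of 6 libraries, and bta-miR-25 had 9.41 to 17.5 times the reads of bta-miR-92b. bta-miR-92b had 1.52 to 6.57 times the reads of bta-miR-32 in 6 of 6 libraries, but their normalized counts overlapped between libraries, from 91.3 upwards for bta-miR-92b and up to 134 for bta-miR-32. Reads of different miRNAs need not be captured with equal ease in a ligation-based library, so that these are ratios of reads.

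Together the family took 5.01%, 6.66% and 5.78% of the reads other than bta-miR-1246 in control-EVs, replicates 1 to 3, against 4.41%, 6.26% and 3.56% in HS-EVs. The 95% Wilson intervals, which cover counting error only, were 4.86% to 5.17%, 6.56% to 6.77% and 5.61% to 5.95% in control-EVs and 4.20% to 4.63%, 6.13% to 6.40% and 3.44% to 3.69% in HS-EVs. Libraries of the same group thus differed by more than counting error. Control-EVs had a mean share of 5.82% ± 0.828 (SD, n = 3), and HS-EVs of 4.75% ± 1.38 (SD, n = 3). In normalized counts the summed family came to 8798 ± 1983 (SD, n = 3) for control-EVs against 6575 ± 1766 (SD, n = 3) for HS-EVs, which is a ratio of 0.747, and 2 of the 3 HS-EVs libraries lay under the lowest control-EVs library. No test was run on this sum.

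The genes that lie beside the members did not yield like numbers of reads. In the MCM7 intron, bta-miR-25 and bta-miR-93 were close, with 0.963 to 1.64 reads of bta-miR-25 per read of bta-miR-93, whereas bta-miR-106b had only 2 to 22 reads in any library and bta-miR-25 166 to 425 times as many. In the miR-17 polycistron, bta-miR-92a had 5.79 to 10.9 times the reads of bta-miR-20a, 20.9 to 60.0 times those of bta-miR-19b, 38.9 to 93.0 times those of bta-miR-17-5p, 64.4 to 255 times those of bta-miR-19a and 203 to 450 times those of bta-miR-18a. MIR92A-2 and MIR19B-2 add to the products of this place, and bta-miR-93, bta-miR-106b, bta-miR-17-5p and bta-miR-20a resemble each other, so that the counting could have split their reads. All 7 of these ratios overlapped between control-EVs and HS-EVs (exact permutation test of the log2 ratio, two-sided, p from 0.2 to 0.9; 3 libraries against 3 cannot go below 0.1).

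**Figure D2:**
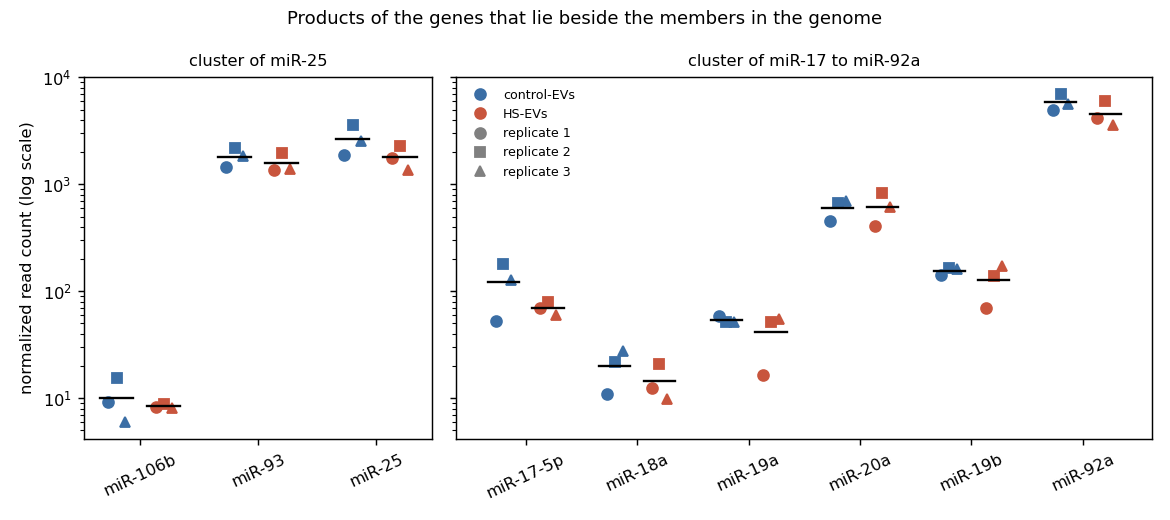
Normalized read count (log scale) in each EV library for the miRNAs encoded beside bta-miR-25 (left) and beside bta-miR-92a (right), with the group mean as a black line. bta-miR-93 lies at the level of bta-miR-25 and bta-miR-106b near 10, and bta-miR-92a lies above each of the 5 miRNAs beside it in all 6 libraries.

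The comparison of HS-EVs with control-EVs asked whether the miRNA content of EVs differs after heat stress. No member passed the threshold that the study set for EVs, an adjusted p-value up to 0.3 at a log2 fold change of at least 1 in either direction, in limma's test on log2(normalized count + 1) over all 512 miRNAs. No other miRNA did so in this test (0% of 512). The study itself used edgeR and named miRNAs enriched in HS-EVs at its threshold, none of them a member of the family. It also lists bta-miR-32 as lower in HS-EVs, at an adjusted p-value above that threshold. The counts given here come from another test and do not repeat those of the study. At an unadjusted p-value of 0.05 or less, 0 of the 5 members were called in limma's test, beside 4.88% of all miRNAs in either direction and 2.15% lower in HS-EVs. On the recovered reads, edgeR's quasi-likelihood test and DESeq2 called 0 members at the study's threshold and 3 and 0 of all miRNAs, respectively. The groups of libraries overlapped in each of the 5 members, where they did not overlap in 6.45% of all miRNAs.

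All 4 detected members had a negative log2 fold change, that is, a lower mean of log2 values in HS-EVs. Among the 204 miRNAs detected in either group 48.5% were negative, and their median was 0.02. The 4 are no independent samples of the condition, since they were read from the same 6 libraries and had the same highest and lowest library.

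bta-miR-32 averaged 85.8 ± 46.8 normalized counts (SD, n = 3) in control-EVs against 36.3 ± 21.5 (SD, n = 3) in HS-EVs. The log2 fold change was -1.21 (standard error 0.60, 95% interval -2.55 to 0.12, unadjusted p = 0.0707 and adjusted p = 0.873 from limma). No HS-EVs library exceeded the highest control-EVs library and 2 of 3 lay under the lowest, while HS-EVs replicate 2 (60.5) lay above control-EVs replicate 1 (40.4). The exact permutation test of the normalized counts, two-sided, gave p = 0.2. The unadjusted p-value depended on the test and was 0.00803 in limma with a mean-variance trend, 0.00571 in edgeR's quasi-likelihood test and 0.0282 in DESeq2, with adjusted p-values of 0.536, 0.418 and 0.995. At an unadjusted p-value of 0.05 or less these tests called 25, 26 and 10 of the 512 miRNAs, respectively.

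bta-miR-25 averaged 2654 ± 844 normalized counts (SD, n = 3) in control-EVs against 1798 ± 455 (SD, n = 3) in HS-EVs. This gave a log2 fold change of -0.54 (standard error 0.47, 95% interval -1.59 to 0.50, adjusted p = 0.873 from limma). bta-miR-92a averaged 5871 ± 1077 (SD, n = 3) and 4584 ± 1258 (SD, n = 3), with a log2 fold change of -0.38 (standard error 0.45, 95% interval -1.37 to 0.62, adjusted p = 0.873 from limma). bta-miR-92b averaged 187 ± 16.5 (SD, n = 3) and 156 ± 55.9 (SD, n = 3), with a log2 fold change of -0.33 (standard error 0.47, 95% interval -1.38 to 0.72, adjusted p = 0.892 from limma). None of these 3 differences passed the test. Their intervals still include a level in HS-EVs of 0.333 to 1.41 times that of control-EVs for bta-miR-25, of 0.386 to 1.54 times for bta-miR-92a and of 0.384 to 1.65 times for bta-miR-92b.

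**Figure D3:**
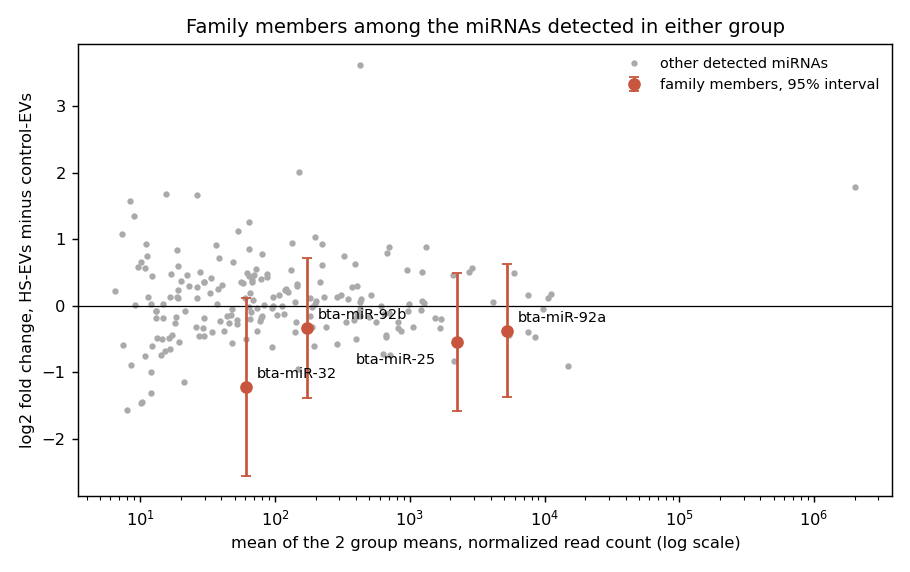
log2 fold change of HS-EVs minus control-EVs against the mean normalized read count (log scale) for the miRNAs detected in either group, with the 4 family members in red and their 95% intervals from limma as bars. The members lie between -0.33 and -1.21, and each of the 4 intervals includes 0.

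Each library was left out in turn. Without HS-EVs replicate 1, the library with the largest share of bta-miR-1246, the log2 fold changes were -0.33 for bta-miR-92a, -0.55 for bta-miR-25, -0.51 for bta-miR-92b and -1.13 for bta-miR-32. Without control-EVs replicate 2, the highest library, they were -0.24, -0.31, -0.27 and -0.82 in the same order, and without HS-EVs replicate 3, the lowest, -0.21, -0.35, 0.014 and -0.86. bta-miR-92a, bta-miR-25 and bta-miR-32 stayed negative in each of the 6 omissions. Without HS-EVs replicate 2 the values were -0.59, -0.73, -0.50 and -1.65, and without control-EVs replicate 1 they were -0.49, -0.77, -0.39 and -1.67. Without control-EVs replicate 3 they were -0.40, -0.56, -0.33 and -1.16. The unadjusted p-value of bta-miR-32 from limma was 0.0438 without control-EVs replicate 1 (adjusted p = 0.556) and 0.275 without control-EVs replicate 2 (adjusted p = 0.908).

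The spread between libraries of a group is set here beside what counting alone would give, which is smaller where reads are many. For bta-miR-92a the pooled SD within groups was 0.33 on the log2 scale, 11.2 times the 0.029 expected from its reads. For bta-miR-25 it was 0.42 and 9.18 times counting error, and for bta-miR-92b 0.43 and 2.76 times. For bta-miR-32 it was 0.83, 2.50 times the 0.33 that its few reads give. Among the 204 detected miRNAs, whose median SD was 0.50, 41 had a smaller SD than bta-miR-92a and 164 a smaller one than bta-miR-32.

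Ratios of members within a library do not depend on the scaling between libraries. Per 100 reads of bta-miR-92a there were 0.816, 1.90 and 1.48 reads of bta-miR-32 in control-EVs, replicates 1 to 3, against 0.686, 1.01 and 0.548 in HS-EVs. Control-EVs averaged 1.40 ± 0.546 (SD, n = 3), HS-EVs averaged 0.748 ± 0.237 (SD, n = 3), and HS-EVs replicate 2 lay above control-EVs replicate 1 (exact permutation test, two-sided, p = 0.2). For bta-miR-25 there were 44.5 ± 6.18 reads per 100 of bta-miR-92a (SD, n = 3) in control-EVs against 39.4 ± 2.67 (SD, n = 3) in HS-EVs (exact permutation test, two-sided, p = 0.2). bta-miR-92b had 3.22 ± 0.294 (SD, n = 3) and 3.40 ± 1.00 (SD, n = 3), respectively (exact permutation test, two-sided, p = 0.9). None of these 3 ratios separated the groups.

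**Figure D4:**
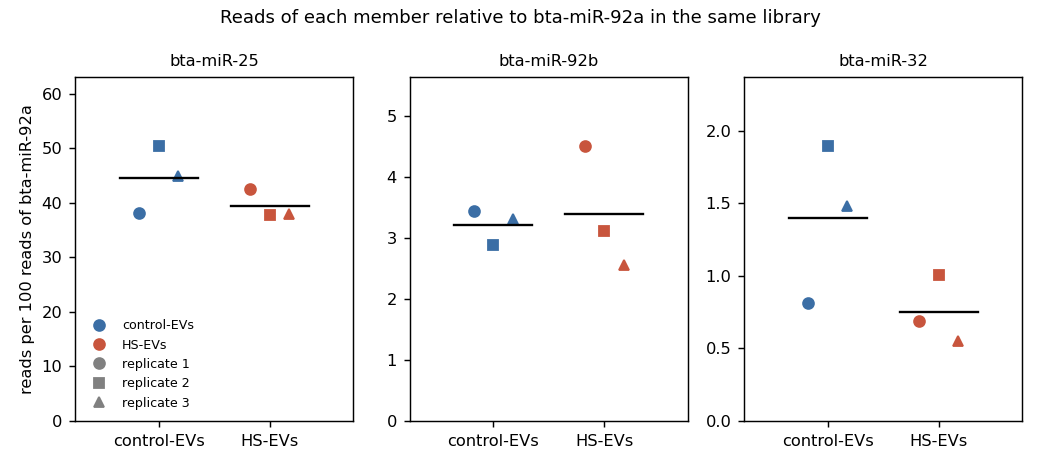
Reads of bta-miR-25, bta-miR-92b and bta-miR-32 per 100 reads of bta-miR-92a in the same library, with the group mean as a black line and each axis starting at 0. The groups overlap in the 3 panels, and the mean of bta-miR-32 is 1.40 in control-EVs and 0.748 in HS-EVs.

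By share of the reads of the family, the order of the members was the same in all 6 libraries. bta-miR-92a held 64.4% to 70.9%, bta-miR-25 26.6% to 32.5%, bta-miR-92b 1.81% to 3.05% and bta-miR-32 0.388% to 1.22%. For bta-miR-32 the Wilson intervals (95%) were 0.379% to 0.866%, 1.06% to 1.41% and 0.732% to 1.33% in control-EVs and 0.225% to 0.956%, 0.547% to 0.925% and 0.222% to 0.678% in HS-EVs. Only control-EVs replicate 2 had an interval above those of the 3 HS-EVs libraries.

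Profiles over the 6 libraries were compared by the root mean square distance between log2 values, each centred on its own mean, among miRNAs with 10 or more reads in every library. Of 129 others, the profile nearest to that of bta-miR-92a was bta-miR-361, at a distance of 0.11, followed by bta-miR-93 (0.13) and bta-miR-660 (0.15). bta-miR-361 is the miRNA to which the study normalized its droplet digital PCR. The profile nearest to bta-miR-25 was bta-miR-92a (0.15), followed by bta-miR-484 and bta-miR-660 (0.17 each), and its neighbour bta-miR-93 was in place 9 (0.24). Nearest to bta-miR-92b were bta-miR-424-5p (0.13), bta-miR-202 (0.16) and bta-miR-873 (0.18). The miRNAs beside bta-miR-92a were farther from it, with bta-miR-20a in place 41, bta-miR-17-5p in place 56 and bta-miR-19b in place 68. The median distance of the 129 was 0.45 for bta-miR-92a, 0.53 for bta-miR-25 and 0.52 for bta-miR-92b, and bta-miR-32 was left out for its 7 reads in HS-EVs replicate 1.

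Of the miRNAs encoded beside the members, 6 were detected. All 6 had a negative log2 fold change, from -0.63 for bta-miR-17-5p to -0.0037 for bta-miR-20a. Among the 204 miRNAs detected in either group 48.5% were negative. For bta-miR-20a the standard error was 0.47, and its mean was higher in HS-EVs, at 619 normalized counts against 607 in control-EVs. The others of the 6 had a lower mean in HS-EVs. None of the 6 passed the threshold. At an unadjusted p-value of 0.05 in limma's test 0 of the 6 were called, beside 4.88% of all miRNAs. bta-miR-93 averaged 1810 ± 359 normalized counts (SD, n = 3) in control-EVs against 1576 ± 339 (SD, n = 3) in HS-EVs, for a log2 fold change of -0.20, with a standard error of 0.44 and an adjusted p of 0.952 from limma. Among the neighbours that were not detected, the groups of normalized counts did not overlap in bta-miR-17-3p and bta-miR-20b (for the latter unadjusted p = 0.0455 and adjusted p = 0.873 from limma), with bta-miR-17-3p higher and bta-miR-20b lower in HS-EVs, beside 6.45% of all miRNAs. They had at most 4 and 2 reads in any library. bta-miR-17-3p was at 1 read in HS-EVs replicate 1 and at 1 in control-EVs replicates 1 and 3, so that its order there is set by what 1 read is worth, and no change is read from either.

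Markers of other cell types were measured in the same libraries. Of 5 red blood cell miRNAs, 4 were detected, each with a negative log2 fold change and a median of -0.31, and 0 passed the threshold. Among the 204 miRNAs detected in either group 48.5% were negative. By mean normalized count bta-miR-451 was not lower, with 29.3 in control-EVs against 29.9 in HS-EVs, while bta-miR-486, bta-miR-16a and bta-miR-16b were. The summed level of the red blood cell list was 6112 to 9968 normalized counts in control-EVs and 5027 to 7125 in HS-EVs. Most of it was bta-miR-16b, which many cell types make, while among the erythroid miRNAs bta-miR-486 had 184 to 859 reads per library, bta-miR-451 9 to 37 and bta-miR-144 2 to 9. bta-miR-486 had 1226, 599 and 535 normalized counts in control-EVs, replicates 1 to 3, against 756, 299 and 380 in HS-EVs, and its groups overlapped. The liver and serum miRNA bta-miR-122 had 12232, 25400 and 21350 normalized counts in control-EVs and 13633, 9840 and 7524 in HS-EVs, at a log2 fold change of -0.91 with a standard error of 0.49 and an adjusted p of 0.873 from limma, and control-EVs replicate 2 and HS-EVs replicate 3 were its highest and lowest libraries as well. Of the 6 granulosa cell and gonad miRNAs 4 were detected, 2 with a negative and 2 with a positive log2 fold change (median 0.036), and 0 passed the threshold. The list summed to 9642 to 17345 normalized counts in control-EVs and 9311 to 16783 in HS-EVs. Most of this sum was bta-miR-21-5p, with 6299 to 14529 per library, while bta-miR-202 had 1015 to 2087. The sum therefore mainly follows bta-miR-21-5p and is no measure of granulosa cells alone. The 3 striated muscle miRNAs had 3 negative log2 fold changes (median -0.25), of which 0 passed. Their mean normalized counts did not fall. In control-EVs against HS-EVs these means were 454 against 537 for bta-miR-1, 185 against 190 for bta-miR-133a and 45.1 against 45.2 for bta-miR-206. The 3 summed to 522 to 969 normalized counts in control-EVs and 227 to 1578 in HS-EVs. The part of these cell types in the values of the family was not tested.

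**Figure D5:**
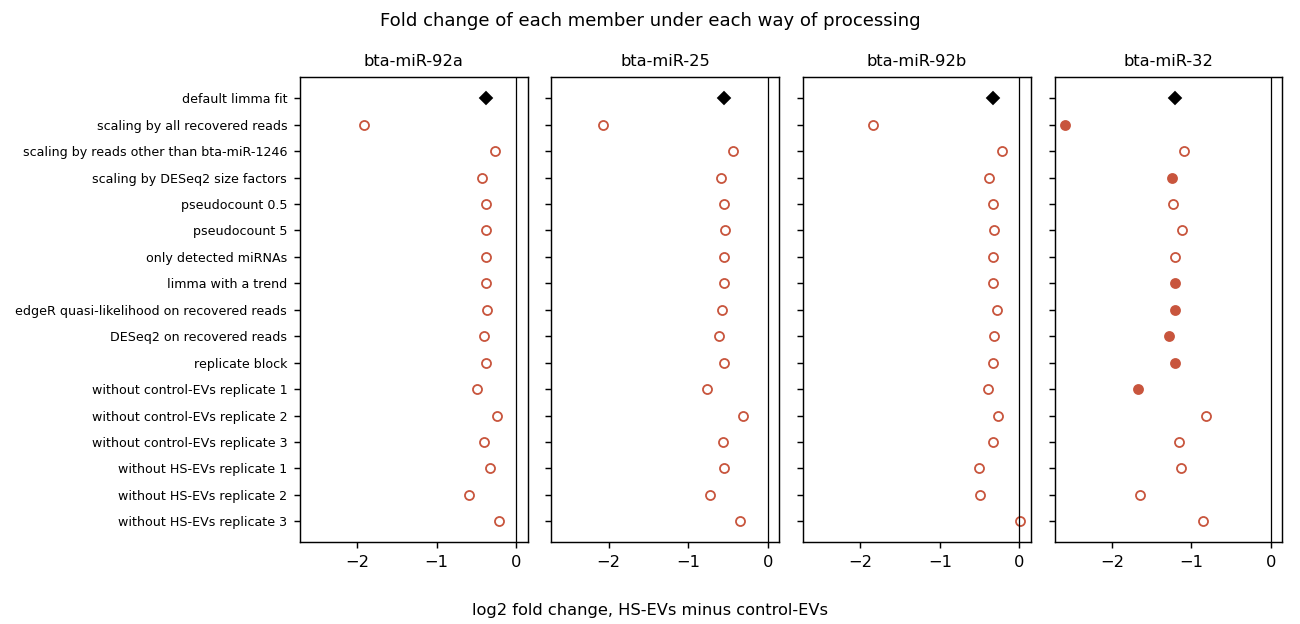
log2 fold change of HS-EVs minus control-EVs for each detected member under limma's default test (black diamond) and 16 other ways of processing (circles, filled where the unadjusted p-value was 0.05 or less). bta-miR-32 is below 0 in 16 of 16 and filled in 7, settings that called 10 to 43 of the 512 miRNAs at that p-value, and bta-miR-92b reaches 0.014 without HS-EVs replicate 3.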

How the data were processed

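Small RNA libraries with unique molecular identifiers (UMIs) were made from EVs. According to the methods and the labels, the authors trimmed reads with cutadapt 1.11, collapsed reads of the same UMI, mapped them with Bowtie2 2.2.2 to the UMD 3.1 assembly and then to miRBase, and normalized them by TMM in edgeR. The deposited values, a normalized read count per miRNA and library, were treated as a signal that is never negative. Each was divided by the smallest value above 0 of its library, and 100% came out whole (tolerance 0.001). If that value stands for another number of reads, all read numbers are off by that factor. Each miRNA was tested with limma 3.58.1 (R 4.3.3, default settings) on log2(normalized count + 1), without a filter, with Benjamini-Hochberg adjustment over 512 miRNAs. Recovered reads were also tested with edgeR 4.0.16 (quasi-likelihood) and with DESeq2 1.42.0. The fits were tried on simulated data with large fold changes set beforehand, and small ones were not tried. Alternatives were other scalings, pseudocounts, a filter, a trend, the replicate block and leaving out each library. Single values were compared by exact permutation. The named miRNAs were the members, those encoded beside them, the marker lists and the 3 nearest profiles of each member; members and lists were chosen with earlier results of these data known. The study calls its replicates biological, and whether each came from other animals or another culture is not given in the sources used here, so that p-values measure the spread between these libraries. No 2 libraries agreed within sampling noise (chi-square per degree of freedom 34.3 or more).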

Additional observations from a re-analysis of the deposited data

How the results depend on the processing

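In 63 of 64 alternative fits of the 4 detected members the log2 fold change stayed negative and short of the study's threshold. The exception was bta-miR-92b, at 0.014 without HS-EVs replicate 3 (range -0.51 to 0.014 with each library left out). The count of members at an unadjusted p-value of 0.05 or less moved from 0 to 1, bta-miR-32, on reads scaled by all reads, with DESeq2's size factors, with a limma trend, in DESeq2, in the quasi-likelihood test of edgeR and with the replicate block, and was 0 to 1 with each library left out (1 without control-EVs replicate 1). In the same order these settings called 18, 30, 25, 10, 26, 30 and 43 of all 512 miRNAs. Over all alternatives the adjusted p-value of bta-miR-32 lay between 0.418 and 0.995. Scaling by all reads moved the log2 ratio of the summed family from -0.42 to -1.22 and the median of all 512 miRNAs from 0.01 to -0.75, and fold changes of the members lay between -1.83 and -2.59. With the replicate block bta-miR-32 had an unadjusted p-value of 0.0411 and an adjusted one of 0.808 from limma. After the group means were removed, libraries of the same number correlated by 0.14, 0.14 and 0.08, and every library correlated best with its own number. No test was run on these weak correlations. The labels do not say that libraries of the same number belong together, so no pairing is read from them. The ranking of seeds planned beforehand was not run, since mature sequences were not used here. For bta-miR-32 depth is a limit, with 7 to 192 reads.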
